A study of Mus musculus with 52 samples.

Results

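The ciliated *Wdr60* clone was compared with the ciliated control clones, using 4 libraries of the mutant clone and 16 libraries of the controls out of the 52 libraries in the series. Members were chosen by their titles and labels alone, without use of any measured value. All cells were IMCD3, an immortalised mouse line from the inner medullary collecting duct of the kidney, here in a version that carries the APEX enzyme in its cilia. The mutant clone, labelled a homozygous mutant, carries *Wdr60* p.Ala911Val made by CRISPR base editing, in which a deaminase bound to Cas9 changes a cytosine without cutting both strands. The 4 controls, D8, H12, A4 and G7, are labelled control and, like the mutant, carry the label CRISPR; they are single clones that received the editor with an empty guide vector. All these libraries are labelled ciliated, which the methods describe as serum-starved cells, although the labels name the same serum-containing medium for every library. Each clone contributed 4 technical replicate libraries, and the p-values below take these libraries as samples. Against the 4 controls together, the spread behind these p-values includes differences between control clones as well as between replicates. With 1 mutant clone against 4 control clones, the edit and the clone cannot be told apart, and an exact 2-sided permutation over clones cannot give a p below 0.2.

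WDR60 is an intermediate chain of dynein-2, the motor that carries intraflagellar transport (IFT) trains from the ciliary tip back to the cell body. It pairs with WDR34 on the heavy chain DYNC2H1, together with a light intermediate chain and several light chains shared with other complexes. The primary cilium of a kidney tubule cell is a sensory organelle that houses receptors and signaling proteins, and the IFT-A, IFT-B and BBSome complexes move cargo along it.

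The edited site is shown because it defines the mutant clone. The guide target lies on chr12:116211807-116211828 (GRCm38, minus strand), in exon 21 of the 22 exons of the *Wdr60* transcript, and is printed 5′ to 3′ with the targeted C at position 5, counted from the 5′ end, and the AGG next to the guide in capitals. The reading frame at chr12:116211808-116211840 follows with the edited codon in capitals, and the targeted C is its middle base at position 116211824.
Wdr60 guide target: cctgCagtgttcctggtccAGG
Wdr60 reading frame: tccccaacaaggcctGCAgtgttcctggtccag
A C-to-T change there turns GCA (alanine) into GTA (valine). The clone also carries a second C-to-T change a few bases downstream, heterozygous and synonymous according to the study, which lies within the printed reading frame. The count tables hold no bases, so the edit itself was not checked here.

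Counts per library totalled 16710899 to 19779438 in the mutant clone and 14816218 to 28084979 in controls. Within clones, the root mean square deviation of a library from its clone's mean, on the log2 scale, was 0.178 to 0.376, largest in *Wdr60* replicate 2 (0.376), A4 replicate 1 (0.354) and G7 replicate 4 (0.335). G7 stood farthest from the mutant clone, with 2366 genes at least 2-fold apart against 704 for H12, 1138 for A4 and 1233 for D8, whereas control clones differed from each other in 891 to 2906 genes. All 10 renal epithelium markers, *Epcam*, *Cdh16* and *Pax8* among them, were tested, and 0 were called in edgeR. *Epcam* ran from 762 to 884 CPM in the mutant and from 12.3 to 895 in controls, and *Cdh1* from 358 to 489 and 11.3 to 683, both lowest in G7; their part in the results was not tested. Of 10 principal cell markers only 2 passed the filter, and *Aqp2*, the vasopressin-regulated water channel of collecting duct, had 0 counts in all 20 libraries. Summed leukocyte markers ran from 245 to 305 CPM, counts scaled to library size, in the mutant and from 142 to 320 in controls, nearly all of it *Csf1r*. Fibroblast markers summed to 2.04 to 2.82 CPM in the mutant and 1.07 to 34.3 in controls, and endothelial markers to 1.64 to 2.77 and 0.66 to 4.96. Proximal tubule markers summed to 18 to 27.4 CPM in the mutant and 16.9 to 568 in controls. Intercalated cell markers did not overlap, at 2.39 to 3.61 CPM in the mutant and 0.571 to 2.08 in controls; most of this was *Slc26a4*, and *Foxi1*, the defining factor of these cells, had 0 counts in all 20 libraries.

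Of 12456 genes tested, 80 (0.642%) had more RNA in the *Wdr60* clone than in the 4 controls together and 161 (1.29%) had less, by edgeR's quasi-likelihood test with Benjamini-Hochberg adjustment (adjusted p under 0.05, at least 2-fold). This is called higher or lower below. When each control clone was compared alone, 38 genes (0.305%) were higher and 82 (0.658%) lower against all 4 of them. All 4 mutant libraries lay above all 16 control libraries for 275 genes (2.21%) and below them for 241 (1.93%), and this held together with the call for 66 genes higher (0.53%) and 92 lower (0.739%). Among the 161 lower genes, 87 averaged under 1 CPM in the mutant clone, and among the 80 higher genes, 18 averaged under 1 CPM in every control clone. Most calls were lost when the clone was the unit: with the 4 libraries of a clone summed, edgeR called 0 genes (192 of 13924 at an unadjusted p under 0.05), and limma's voomLmFit, blocked on clone, called 13 higher and 0 lower. Without control H12 the counts were 207 higher and 254 lower, and without G7 158 and 246. Leaving out any 1 replicate number from every clone lowered them to 31 to 38 higher and 51 to 70 lower.

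None of the dynein-2 subunit genes was called. *Wdr60* itself had 19, 18.9, 23.1 and 23.2 CPM in the mutant libraries, against 21.2 to 28.7 (median 24.3) in controls. Its 2 lower libraries lay below every control and the other 2 within their range (log2 fold change -0.23, SE 0.095, edgeR adjusted p = 0.159). A missense edit need not change the amount of mRNA, so this level is no check of the label. Over the 10 subunit genes tested the median log2 fold change was 0.09 beside -0.03 over all genes tested. *Wdr34*, encoding the partner chain, had 39.7, 45.5, 62.3 and 55.7 CPM against 26.8 to 50.2 in controls (log2 fold change 0.30, SE 0.15, edgeR adjusted p = 0.249). The heavy chain gene *Dync2h1* had 28.2, 32.4, 18.2 and 15.2 CPM against 21.7 to 32.6, so that its mutant libraries fell on both sides of the control median of 26.0. *Dynll1*, a light chain used by many complexes, was the single subunit past the adjusted p alone, at a log2 fold change of 0.37 (SE 0.095, edgeR adjusted p = 0.0243). Its mutant libraries at 221, 203, 310 and 287 CPM overlapped the controls at 165 to 227. It lies on chromosome 5, whose tested genes had a median log2 fold change of 0.27. For *Wdr60*, *Wdr34* and *Dynll1*, mutant replicates 1 and 2 lay below replicates 3 and 4, and for *Dync2h1* above them. *Dync2li1*, the light intermediate chain gene, had no such split. The part of this split of the mutant libraries in the results was not tested.

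Among genes of the cilium itself, more were called lower than higher, which reads beside 1.29% lower and 0.642% higher over all tested genes. Of 34 tested genes of the IFT-A, IFT-B and BBSome trains, 1 was lower and 0 higher (median log2 fold change -0.05). It was *Bbs1*, a BBSome subunit that sorts membrane proteins out of the cilium, with 20.4, 23.2, 21.6 and 17.6 CPM in the mutant libraries against 33.1 to 61.5 (median 48.0) in controls. The groups did not overlap, at a log2 fold change of -1.18 (SE 0.16, edgeR adjusted p = 0.000128). At the transition zone, the gate at the ciliary base, 1 of 27 tested genes was higher and 1 lower. *Tmem17*, a membrane protein of the gate, rose to 5.53, 9.71, 6.18 and 7.17 CPM, above all controls at 0.867 to 5.01 (log2 fold change 1.12, SE 0.27, edgeR adjusted p = 0.0179). *Cc2d2a*, a scaffold of the same gate, was at 2.06, 1.58, 1.90 and 1.64 CPM against 1.85 to 9.61, overlapping only the lowest controls (log2 fold change -1.60, SE 0.39, edgeR adjusted p = 0.018). Leaving out any 1 replicate number removed the calls of *Tmem17* and *Cc2d2a*, and leaving out control A4 also removed that of *Tmem17*. *Bbs1* kept its call without any 1 control clone or replicate number, but not with the clone as the unit.

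Ciliary kinases and regulators of the axoneme and membrane gave 3 lower genes of 29 tested and 0 higher. *Dcdc2a*, a doublecortin-domain protein that binds ciliary microtubules, fell to 3.18, 2.26, 2.60 and 4.38 CPM from 30.1 to 108 (median 59.8) in controls, without overlap (log2 fold change -4.37, SE 0.45, edgeR adjusted p = 4.42e-06). *Mak*, a kinase that limits cilium length, and *Tbc1d30*, a Rab GTPase-activating protein of the cilium, had mutant means of 0.111 and 0.399 CPM. In both, G7 was as low as the mutant, at 0.0585 and 0.25 CPM, while D8, H12 and A4 ran from 1.82 to 5.45 for *Mak* and from 3.99 to 10.1 for *Tbc1d30*. Of 18 tested motile cilia genes, 2 were lower, *Dnaaf3* and *Zmynd10*, both needed to assemble dynein arms of beating cilia. *Dnaaf3* was at 0 to 0.299 CPM in mutant libraries and 0.569 to 6.49 in controls, without overlap, at a level of few counts. The calls of *Mak*, *Tbc1d30* and *Dnaaf3* were lost without any 1 replicate number, and that of *Zmynd10* without replicate 1, 2 or 3. *Dcdc2a* kept its call in these settings, but not with the clone as the unit. None of 13 tested Hedgehog pathway genes was called, and 1 had an adjusted p under 0.05 in edgeR.

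**Figure D1:**
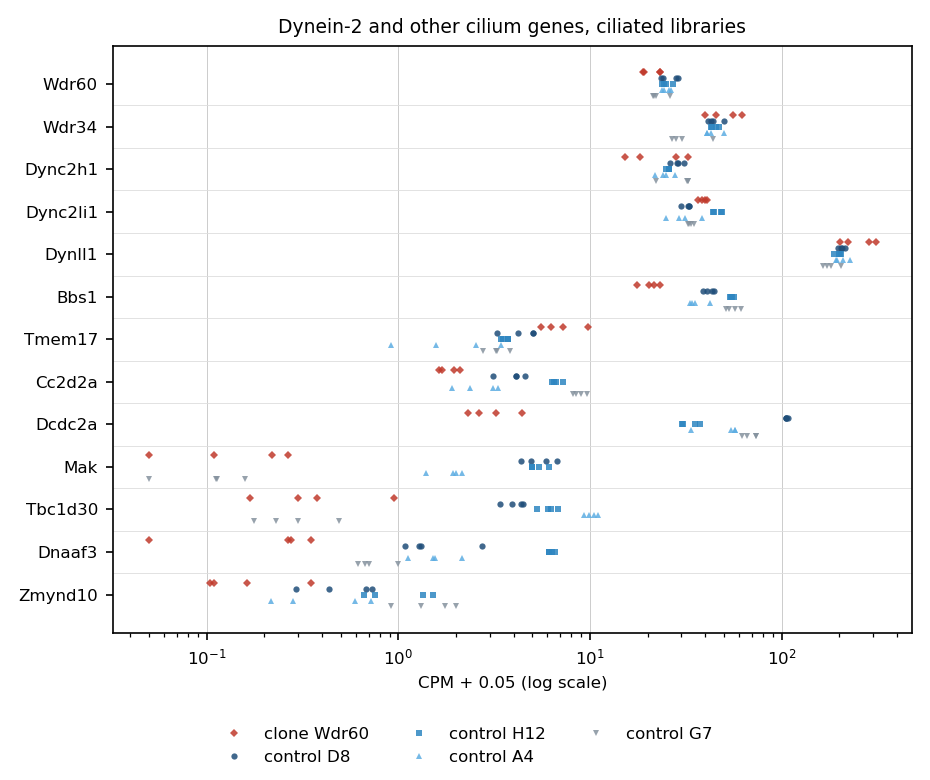
CPM plus 0.05 on a log axis for dynein-2 genes and other cilium genes in the 20 ciliated libraries, 4 points per clone. Bbs1 and Dcdc2a of the Wdr60 clone lie below every control library, Tmem17 lies above them, and Mak and Tbc1d30 are as low in control G7 as in the Wdr60 clone.

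Genes lower in the *Wdr60* clone against all controls together and each alone, with no overlap of libraries and without the genes the study itself discusses, numbered 40, and those with the largest difference are described here. *Tsnax*, encoding the partner of translin in an RNA-processing nuclease, was the clearest. It had 0, 0.0565, 0.108 and 0.0996 CPM in the mutant libraries, 5 counts in all, against 13.3 to 43.1 (median 28.1) in controls. The control clones averaged 26.3, 40.6, 15.6 and 30.6 CPM in D8, H12, A4 and G7, at a log2 fold change of -8.56 (SE 0.53, edgeR adjusted p = 4.19e-09). *Tsnax* spans chr8:125013041-125034208.

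*Tox*, an HMG-box nuclear factor, had 0 counts in all 4 mutant libraries and 0.284 to 12.9 CPM in controls. Against a floor of 3 counts over the 4 libraries (0.0416 CPM), the control mean was at least 115-fold higher. Control levels of *Tox* were themselves uneven, from 0.428 CPM in H12 to 12.1 in G7. *Sytl2*, an effector of the secretory GTPase Rab27, was detected in 1 mutant library at 0.0996 CPM and ran from 0.655 to 79.8 in controls, with 69.7 CPM on average in G7 against 0.869 to 3.27 in the other 3. *Plagl1*, an imprinted zinc finger factor, was at 0 to 0.0565 CPM against 0.813 to 9.23, with higher controls in A4 and G7. *Panx1*, a large-pore membrane channel, had 0, 0.0565, 0.163 and 0 CPM against 1.03 to 4.47 (log2 fold change -5.22, SE 0.70, edgeR adjusted p = 0.000114). For these genes all mutant libraries were at or near the detection limit while every control library had reads.

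The remaining genes of this group showed the same order of libraries at low levels. *Syngr3*, a synaptic vesicle membrane protein, was at 0 to 0.217 CPM against 0.825 to 10.5. *Hcn2*, a pacemaker cation channel, had at most 0.113 CPM against 0.276 to 1.92. *Il3ra*, the alpha chain of the interleukin 3 receptor, was seen in 1 mutant library at 0.108 CPM and in controls at 0.218 to 6.42, highest in D8. *Cbr3*, a carbonyl reductase, was at 0.235 to 0.498 CPM against 1.74 to 13.9, highest in H12. *Ankrd33b*, an ankyrin repeat protein, was at 0 to 0.353 CPM against 0.442 to 9.83, *Tceal1*, a nuclear phosphoprotein of the TCEAL family, at 0 to 0.226 against 0.231 to 3.16, and *Clec2d*, a C-type lectin, at 0.0498 to 0.271 against 0.436 to 7.45. In these 3 genes the gap between the groups was narrow beside the spread of the controls. 2 transcripts known by clone names belonged to the group, *A230050P20Rik* (0 to 0.0996 CPM against 1.5 to 8.40) and *2610305D13Rik* (0.349 to 0.588 against 5.88 to 24.4; log2 fold change -4.65, SE 0.42, edgeR adjusted p = 8.61e-07).

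**Figure D2:**
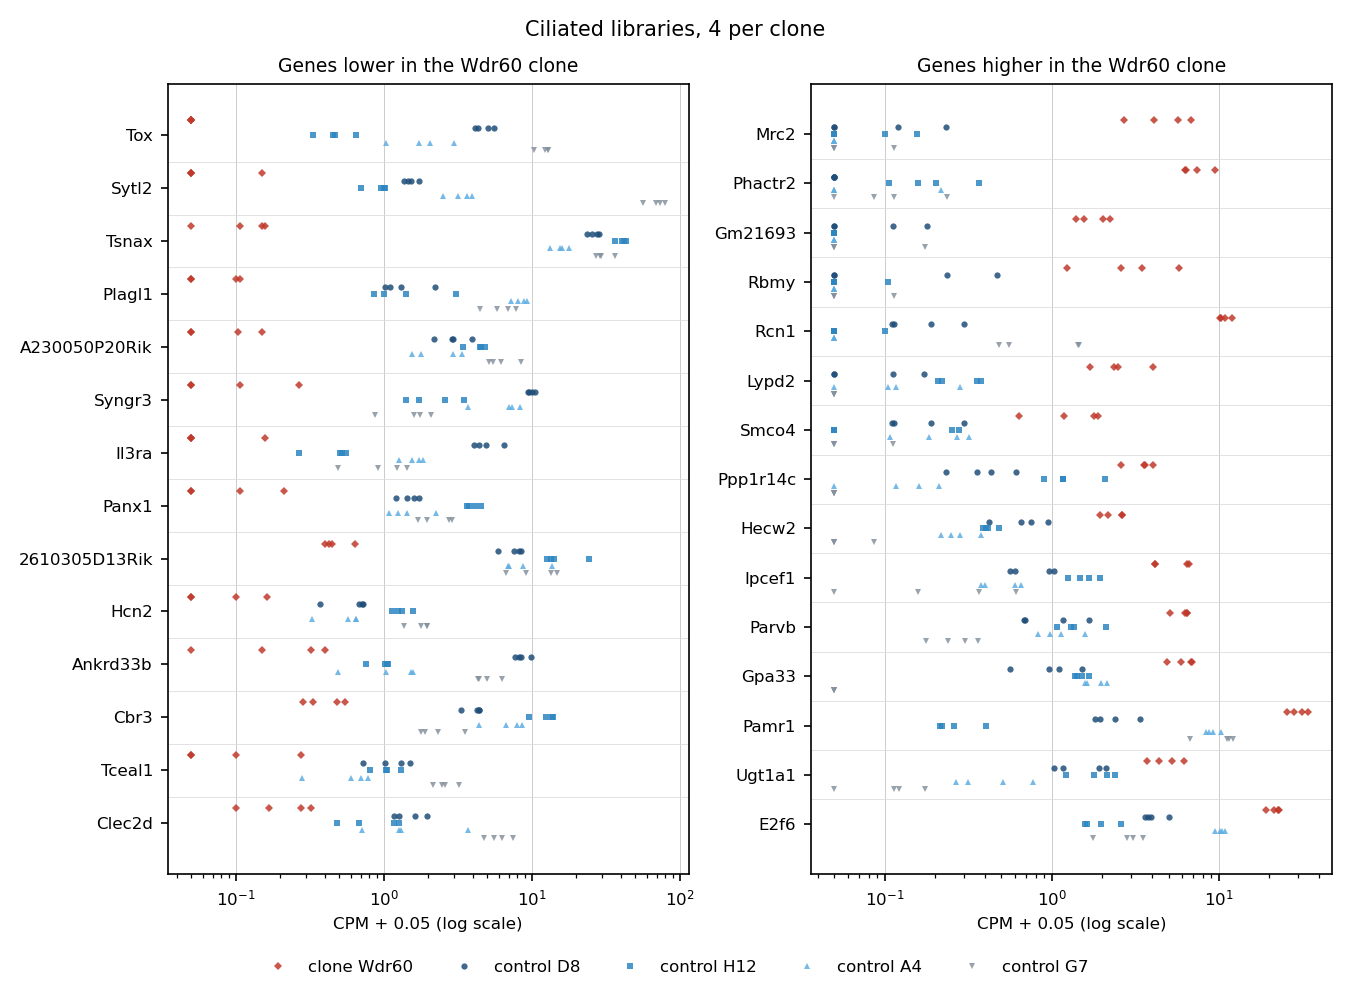
CPM plus 0.05 on a log axis for genes with the largest decrease (left) and the 15 with the largest increase (right) in the Wdr60 clone, 4 points per clone. Mutant and control libraries do not overlap for any gene shown, which is part of the rule that chose them; Tsnax, Phactr2 and Mrc2 show wide gaps.

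By the same rule 19 genes were higher, and again 15 are described. *Mrc2*, a receptor that takes up collagen fragments, had 2.65, 4.07, 6.78 and 5.63 CPM in the mutant libraries and 0 to 0.182 (median 0) in controls. Its log2 fold change was 7.06 (SE 0.56, edgeR adjusted p = 1.25e-07). *Phactr2*, a regulator of protein phosphatase 1 and actin, was at 6.24, 9.43, 7.32 and 6.28 CPM against 0 to 0.316 (log2 fold change 6.57, SE 0.55, edgeR adjusted p = 3.16e-07). *Rcn1*, a calcium-binding protein of the endoplasmic reticulum, was at 10.3, 10.1, 10.9 and 12 CPM. Control G7 averaged 0.928 CPM for *Rcn1* and the other controls 0 to 0.128, at a log2 fold change of 5.28 (SE 0.80, edgeR adjusted p = 0.000383). These 3 genes were thus nearly silent in most control libraries and plainly expressed in all 4 mutant libraries.

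A pair of genes on the Y chromosome stood with them. *Rbmy*, a germ-cell RNA-binding protein, had 3.41, 5.76, 1.19 and 2.54 CPM against 0 to 0.42, and *Gm21693* had 1.35, 1.52, 2.17 and 1.99 against 0 to 0.128. *Rbmy* belongs to a multicopy family, and counting can divide reads among near-identical copies, so the level of either is uncertain. Of 6 Y-linked genes tested, 2 were higher and 0 lower, and 3 had an adjusted p under 0.05 in edgeR. The third was *Eif2s3y*, a translation initiation factor subunit, at 146 CPM on average against control clone means of 107 to 130 (log2 fold change 0.30, SE 0.085, edgeR adjusted p = 0.0398). The other 3, *Ddx3y*, *Uty* and *Kdm5d*, had log2 fold changes of -0.11, -0.32 and 0.08, and the median of the 6 was 0.19.

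*E2f6*, a transcriptional repressor of the E2F family, was at 23, 22.6, 19 and 21.5 CPM against 1.53 to 10.8, with A4 highest at 10.2 on average and the other controls at 1.90 to 4.04 (log2 fold change 2.19, SE 0.43, edgeR adjusted p = 0.00349). *Parvb*, a partner of integrin-linked kinase at focal adhesions, was at 5.08 to 6.43 CPM against 0.127 to 2.05 (log2 fold change 2.69, SE 0.42, edgeR adjusted p = 0.000525). *Pamr1*, a secreted peptidase-domain protein, was at 25.7 to 34.3 CPM, and its controls divided into A4 and G7 at 9.11 and 10.3 and D8 and H12 at 2.33 and 0.225. *Gpa33*, a surface antigen of intestinal epithelium, was at 4.86 to 6.83 CPM against 0 to 2.08, with 0 counts in G7. *Ugt1a1*, the bilirubin-conjugating enzyme, was at 3.69 to 6.16 CPM against 0 to 2.35; it shares exons with other genes of its locus, which leaves its own count uncertain. *Ipcef1*, which binds cytohesin exchange factors, was at 4.09 to 6.55 CPM against 0 to 1.89, *Hecw2*, a ubiquitin ligase, at 1.89 to 2.60 against 0 to 0.899, and *Ppp1r14c*, an inhibitor of protein phosphatase 1, at 2.53 to 4.01 against 0 to 2.02. *Lypd2*, a GPI-anchored surface protein, and *Smco4*, a small membrane protein, reached 1.64 to 4.01 and 0.588 to 1.84 CPM against at most 0.327 and 0.271.

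The 10 called genes with the highest levels were 3 higher and 7 lower. *Cdh6*, a cadherin of developing nephrons, rose to 933, 806, 838 and 822 CPM from 149 to 512 (median 420), without overlap (log2 fold change 1.18, SE 0.28, edgeR adjusted p = 0.0164). *Nrep*, a neuronal regeneration-related protein, was at 390, 381, 383 and 441 CPM against 2.85 to 120. Its controls D8, H12 and A4 averaged 79.9 to 108 CPM and G7 3.86, at a log2 fold change of 2.46 (SE 0.64, edgeR adjusted p = 0.0257). The *Nrep* call was lost with a replicate block, without control A4 and without each replicate number. *G6pc2*, a glucose-6-phosphatase subunit best known in pancreatic islets, rose to 161, 217, 141 and 144 CPM from 45.1 to 136 (log2 fold change 1.40, SE 0.20, edgeR adjusted p = 0.000183). *Sema5a*, an axon guidance semaphorin, fell to 17.0, 16, 11.3 and 10.9 CPM from 26.1 to 324, without overlap. *Asns*, asparagine synthetase, was at 60.8, 53.1, 50.3 and 59.7 CPM against 84.6 to 235 (log2 fold change -1.45, SE 0.32, edgeR adjusted p = 0.00983). *Cp* (ceruloplasmin, a copper-carrying ferroxidase), *Peg3*, *Mthfd2*, *Flnc* (filamin C, an actin crosslinker) and *Ppp2r5b* (a regulatory subunit of protein phosphatase 2A) also fell by 1.01 to 1.63 on the log2 scale. In each of these 5 the mutant libraries overlapped at least 1 control clone, H12 for *Peg3*, *Mthfd2*, *Flnc* and *Ppp2r5b* and A4 for *Cp*.

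Gene lists were drawn up with earlier results of these data known, so their counts describe the clone and are no independent evidence. Many of these counts moved by over 1.5 times with the processing, 21 of 48 under DESeq2 and 27 to 29 with the clone as the unit. The counts below read beside 1.29% lower and 0.642% higher, and a median log2 fold change of -0.03, over all genes tested. Vesicle traffic had 10 lower and 1 higher of 43 tested (median log2 fold change -0.33). Besides *Sytl2*, *Syngr3* and *Tsnax*, whose own role is in RNA processing, the named lower members were *Rab19*, a GTPase with 0 counts in the mutant and 0 to 2.82 CPM in controls, *Sh3gl2*, an endophilin of endocytosis, and *Elmod1*, a GTPase-activating protein for ARF proteins. *Sh3gl2* was at 0 to 0.249 CPM against 0.0632 to 29.8, and G7 was as low as the mutant at 0.18. *Rab27b*, the GTPase that *Sytl2* proteins bind, was the higher member; it, *Cldn2* and *Slc26a4* are named outside the rule for named genes, after their values were seen. *Rab27b* was at 40.7 ± 8.41 CPM (SD, n = 4 libraries) against 24.5, 14.2, 21.7 and 6.30 in D8, H12, A4 and G7 (log2 fold change 1.29, SE 0.34, edgeR adjusted p = 0.0282).

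*Spata13*, an exchange factor for Rac and Cdc42, had 92.2, 98.6, 76.3 and 71.1 CPM in mutant libraries against 24.8 to 41.6 (median 31.7) in controls, a log2 fold change of 1.37 (SE 0.13, edgeR adjusted p = 8.61e-07). Its 4 control clones averaged 26.6 to 40.5 CPM. *Rasgef1b*, an exchange factor for Rap, had 88.2, 106, 76.8 and 70.5 CPM against 10.5 to 59.6, with H12 highest (log2 fold change 1.57, SE 0.39, edgeR adjusted p = 0.0197). Among 36 tested microtubule-associated genes 2 were higher and 0 lower. They were *Eml1*, at 27.1, 27.4, 31.8 and 32.6 CPM against 6.18 to 19.5 (log2 fold change 1.17, SE 0.20, edgeR adjusted p = 0.00121), and *Mapt*, encoding tau, at 10.1 to 16.3 against 0.124 to 6.23.

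Developmental transcription factors gave 11 lower and 0 higher genes of 62 tested (median log2 fold change -0.20). *Pitx1*, a homeobox factor of hindlimb, and *Tbx15*, a T-box factor of limb and skeleton, had 0 counts in all mutant libraries, so that their control means were at least 44.5-fold and 76-fold higher. *Tbx15* was nearly absent from D8 as well, at 0.0312 CPM, against 5.62 in H12 and 6.48 in G7. *Nr2f1*, an orphan nuclear receptor, was detected in 1 mutant library at 0.0542 CPM and at up to 1.93 in controls. *Foxd1*, a forkhead factor of renal stroma, was at 4.12, 3.22, 5.04 and 6.43 CPM against 7.32 to 138, with G7 far above the other controls. *Tox* and *Plagl1* completed those named. In epithelial and mesenchymal genes, 2 of 27 were lower, *Loxl3*, a lysyl oxidase, at 0.588 to 1.13 CPM against 2.17 to 8.07 (log2 fold change -2.19, SE 0.33, edgeR adjusted p = 0.000305), and *Twist2*, which overlapped the controls.

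Cytokines, their receptors and inflammatory caspases gave 8 lower and 0 higher of 38 tested, with a median log2 fold change of -0.78 beside -0.03 over all genes. The list summed to 784 to 882 CPM in mutant libraries and 936 to 1830 in controls, so the groups did not overlap. The lower members *Casp12*, *Il33*, *Il3ra*, *Irak3*, *Lta* and *Nfkbid* had at most 6.42 CPM in any control library and make up little of these sums. *Nfkbid*, a nuclear IkB protein, was at 0.0588, 0.113, 0.379 and 0.0498 CPM against 0.253 to 2.96 (log2 fold change -3.33, SE 0.63, edgeR adjusted p = 0.00288). *Irak3*, an inhibitor of Toll-like receptor signaling, was at 0.0996 to 0.488 CPM against 0.325 to 1.95. *Casp12*, an inflammatory caspase, had 0 counts in the mutant but also only 0.0836 CPM in A4, and *Lta* and *Il33*, both cytokines, were near 0 in the mutant and under 1 CPM on average in at least 3 control clones. Among 41 tested interferon and antigen presentation genes 2 were lower, *Ifitm10*, an interferon-induced membrane protein family member, and *H2-K2*, a class I histocompatibility gene. In mutant libraries they had 0.226 to 0.349 and 0.169 to 0.705 CPM and in controls at least 0.379 and 0.37. *H2-K2* has near-identical relatives, which leaves its count uncertain. Of 16 tested complement genes 1, *C3*, was lower. Its mutant libraries at 0.395 to 0.647 CPM lay just under the lowest control at 0.709, and the list's median log2 fold change was -2.18. Much of the list was high in G7 alone: *C1ra*, *C1s1* and *C1rb*, proteases that start the classical pathway, averaged 29.3, 18.6 and 6.63 CPM there against at most 0.832, 0.538 and 0.414 in the other controls, and were not called.

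Growth factors moved in both directions. Of 24 tested genes of TGF-beta, activin and BMP signaling, 3 were higher and 3 lower. *Tgfb3*, a TGF-beta ligand, rose to 54.3, 46.1, 58.9 and 61.9 CPM from 13.5 to 33.5 (log2 fold change 1.23, SE 0.21, edgeR adjusted p = 0.00118). *Ldlrad4*, a membrane inhibitor of TGF-beta signaling, rose to 62.3 to 68.1 CPM from 23.2 to 42.3 (log2 fold change 1.02, SE 0.14, edgeR adjusted p = 0.000197), close to the fold limit. *Inha* and *Inhbb*, inhibin subunits, and *Bmp3*, an atypical BMP, were lower. *Bmp3* was at 4.04 to 6.10 CPM against 9.29 to 41.1, without overlap, whereas *Inha* was as low in G7 (0.285 CPM) as in the mutant (0.362). In the GDNF and ureteric branching list, 1 of 24 tested genes was higher and 2 were lower, *Artn* and *Foxd1*. The higher member was *Fgf1*, a fibroblast growth factor. It had 113, 107, 98.5 and 110 CPM against 11.3 to 42.8 (log2 fold change 2, SE 0.29, edgeR adjusted p = 0.000288). *Artn*, a RET ligand of the GDNF family, was lower at 0 to 0.448 CPM, and G7 was again as low as the mutant at 0.297 while the other 3 averaged 8.11 to 10.7.

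Transport genes of collecting duct and tubule gave 3 higher and 5 lower of 28 tested (median log2 fold change -0.46). *Car2*, the cytosolic carbonic anhydrase of acid-base handling, was the steadiest: its mutant libraries had 7.65, 6.72, 6.72 and 7.27 CPM and its controls 14.5 to 28.4, with clone means of 19.1 to 20.4. Its log2 fold change was -1.48 (SE 0.14, edgeR adjusted p = 1.36e-06). *Car13*, a further carbonic anhydrase, had 0 counts in the mutant and 0 to 2.65 CPM in controls. *Kcnj16*, an inward rectifier potassium channel, was at 6.61 to 9.49 CPM against 8.32 to 37.1, and G7 (9.83) was close to it. *Stk39*, a kinase that activates sodium chloride cotransporters, was at 0.0498 to 0.177 CPM, with A4 as low at 0.158 and H12 and G7 at 9.82 and 9.75. *Scnn1g*, a subunit of the epithelial sodium channel, was at 0.0542 to 0.199 CPM against 0.133 to 1.80. *Sgk2*, a kinase related to the aldosterone-induced SGK1, was higher at 3.39 to 4.57 CPM against 0 to 2.98, and *Cldn2*, a cation-permeable claudin, and *Slc26a4*, pendrin, had mutant means of 25.5 ± 2.15 and 2.31 ± 0.542 CPM (SD, n = 4 libraries) against control clone means of 8.88 to 15 and 0.506 to 1.41.

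Of 35 tested genes of retinoid, aldehyde and xenobiotic metabolism, 2 were higher and 5 lower. *Aldh2*, mitochondrial aldehyde dehydrogenase, was at 0.177, 0.282, 0.271 and 0.199 CPM against 0.494 to 3.61, without overlap (log2 fold change -2.91, SE 0.54, edgeR adjusted p = 0.00223). *Cyp4a12b*, a fatty acid hydroxylase, and *Sult1d1*, a sulfotransferase, were near 0 in the mutant and low in several controls, and *Ptgr1*, a prostaglandin reductase, was higher at 9.04 to 14.3 CPM against 1.80 to 8.17. Glycosaminoglycan enzymes gave 1 higher and 1 lower of 32 tested. *Ust*, which sulfates uronic acid units of chondroitin and dermatan chains, was at 10.2, 11.5, 10.7 and 9.72 CPM against 0.992 to 4.13 (log2 fold change 2.08, SE 0.32, edgeR adjusted p = 0.000418), and *Hyal1*, a lysosomal hyaluronidase, was at 0.765 to 1.08 against 1.12 to 3.23. Among 31 tested matrix genes 1 was lower, *Hapln4*, a link protein of hyaluronan matrix, at 2.35, 2.03, 2.71 and 2.04 CPM against 6.92 to 18.1 (log2 fold change -2.38, SE 0.27, edgeR adjusted p = 1.33e-05). Imprinted genes gave 4 lower and 0 higher of 25. With *Plagl1* these were *Igf2*, *Peg3* and *Mest*, a hydrolase-fold protein expressed from the paternal allele, which was at 0.747 to 2.20 CPM against 2.84 to 11.6. *Igf2* averaged 0.0136 CPM in the mutant but also only 0.0786 in H12 and 0.175 in A4, and its call was lost without D8 or G7. *Peg3* overlapped H12. None of 4 tested vitamin D and calcium genes was called, with 0 at an adjusted p under 0.05 in edgeR.

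**Figure D3:**
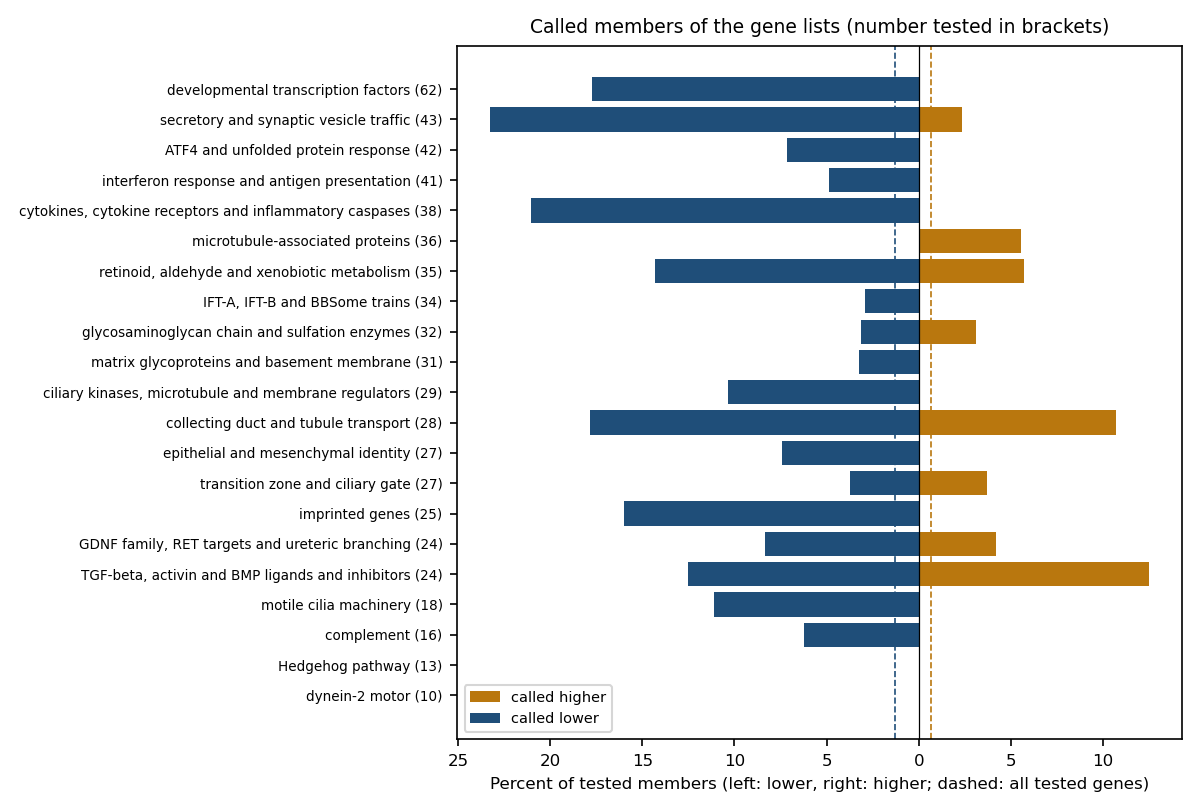
Share of tested members of each gene list called higher (right) or lower (left) in the Wdr60 clone, in percent, with the number tested in brackets and the shares over all tested genes as dashed lines. Lists with under 10 tested members, and 1 other list, are left out. Vesicle traffic (10 of 43) and cytokines (8 of 38) have the largest shares lower; the lists were drawn up with earlier results known.

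The 3 lower genes of 42 tested in the ATF4 and unfolded protein response list, *Asns*, *Mthfd2* and *Fkbp14*, share a chromosome. *Mthfd2*, a mitochondrial folate enzyme, was at 38.7, 33.5, 41.0 and 53.0 CPM against 44.8 to 152, and *Fkbp14*, a prolyl isomerase of the endoplasmic reticulum, at 0.399 to 0.824 against 0.771 to 3.91. H12 was the lowest control clone for both *Asns* (93.5 CPM) and *Mthfd2* (50.4 CPM). All 3 lie on chromosome 6, as do *Mest*, *Loxl3*, *Flnc*, *Rab19* and *Clec2d*. Chromosome 6 had the lowest median log2 fold change of all chromosomes, -0.40 over 597 tested genes, and 14.1% of its genes had a positive value. Of its genes 23 were lower (3.85%) and 0 higher, against 138 lower of 11859 (1.16%) and 80 higher elsewhere. Against single controls the chromosome 6 median was -0.49 for D8, -0.42 for A4, -0.50 for G7 and -0.03 for H12. Chromosome 5 had the highest median of the autosomes and X, 0.27 over 815 genes, and was positive against each control, from 0.17 in D8 to 0.45 in G7. Other chromosomes had smaller medians against the controls together, such as -0.12 for chromosome 4, -0.11 for 19, -0.10 for 13 and 0.09 for 1, and larger ones against some controls alone, such as chromosome 1 against G7 (0.52) and chromosome 3 against D8 (0.30) and H12 (-0.30). The part of these chromosome-wide differences in single genes was not tested.

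**Figure D4:**
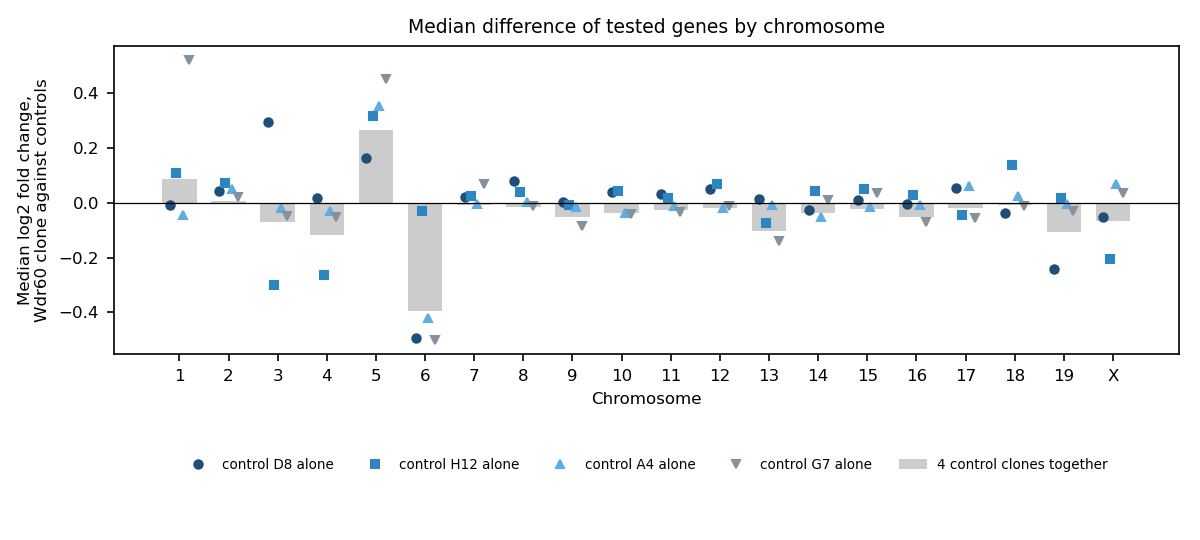
Median log2 fold change of the tested genes of each chromosome in the Wdr60 clone, against the 4 control clones together (bars) and each alone (points); the Y chromosome, with 6 tested genes, is left out. Chromosome 6 lies at -0.40 and near 0 against H12 alone, and chromosome 5 lies above 0 against every control.

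Nonciliated libraries of the *Wdr60* clone, with 4 libraries against 16 of the nonciliated controls AB, 1, 2 and 3, gave a reading of the same genes in other cultures. There 122 of 12371 tested genes (0.986%) were higher and 300 (2.43%) lower. Of the 161 genes lower in ciliated cells 155 were tested, and 101 of them (65.2%) were also called lower and 0 higher; these are 33.7% of the 300. Of the 80 higher genes 74 were tested, and 27 (36.5%) were also called higher and 0 lower, which is 22.1% of the 122. Both sets of libraries come from a clone labelled *Wdr60*, so this second reading cannot tell the edit from the clone either. *Tsnax* had 0, 0.0558, 0.058 and 0 CPM there against 16.4 to 46.0 in nonciliated controls, and *Spata13* 70.3 to 75.6 against 12.7 to 32.9. *Mrc2* was at 6.85 to 11.7 CPM against 0 to 3.6 and *Rcn1* at 19 to 22.8 against 0 to 5.58. In these 4 genes the nonciliated groups did not overlap.

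Several genes called in ciliated cells were not called in nonciliated ones. *Asns* had 272, 273, 243 and 248 CPM against 183 to 293 in nonciliated controls, and *Mthfd2* 156 to 177 against 163 to 194, within or close to the range of the controls. The chromosome 6 median in nonciliated cells was -0.43, so it was low there too. *Phactr2* was at 1.86 to 3.07 CPM against 0 to 4.8, inside the nonciliated range. *Cdh6* was at 53.0 to 79.0 CPM against 26.4 to 330, and *Ldlrad4* at 15.1 to 16.1 against 6.96 to 20.5. *Bbs1* was lower again, at 13.1 to 14.9 CPM against 21.6 to 39.3. Whether any of these effects differed between the states was not tested.

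**Figure D5:**
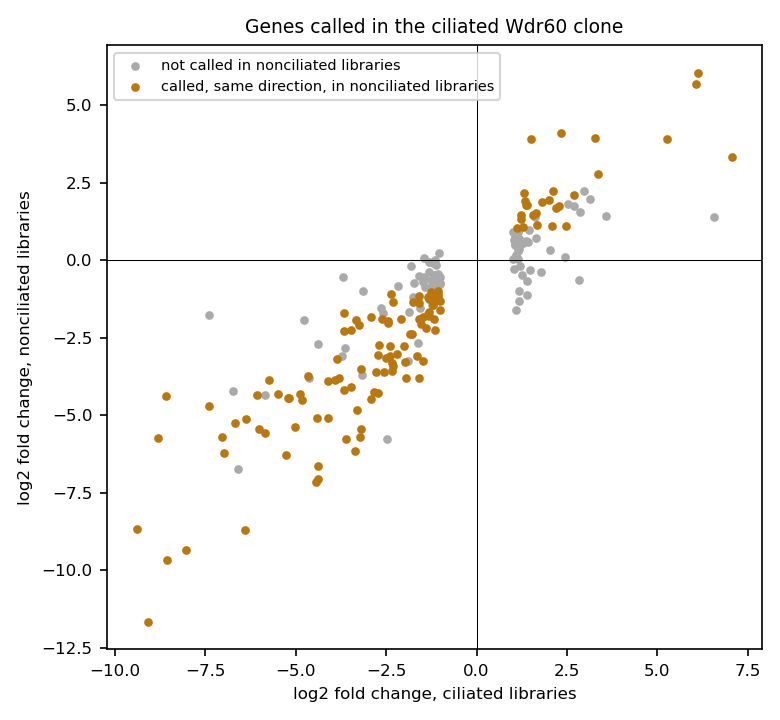
Log2 fold change of the Wdr60 clone against controls in nonciliated libraries (vertical) and ciliated libraries (horizontal) for the genes called in ciliated cells and tested in both. The 101 lower and 27 higher genes called in the same direction in both states are coloured; 0 were called in opposite directions.

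In the ciliated libraries of the 2 *Wdr34* clones, which share the controls and are given side by side without a test, levels were mixed. *Tsnax* averaged 29.0 CPM in clone 1 and 36.3 in clone 3, within the range of the controls. *Mrc2* averaged 0 and 0.539 CPM, but *Rcn1* and *Phactr2* reached 10.1 and 7.95 in clone 3, near the 10.8 and 7.32 of the *Wdr60* clone, and 0.302 and 0.058 in clone 1. *Spata13* averaged 65.3 CPM in clone 1, above every control, and 33.5 in clone 3. *Panx1* had 0 counts in clone 1 and 1.5 CPM in clone 3, and *Plagl1* 0.0732 and 20.1. *Bbs1*, by contrast, averaged 55.9 and 51.2 CPM in the *Wdr34* clones against 20.7 in the *Wdr60* clone.

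As a feature the comparison did not use, CG dinucleotides were counted in RefSeq promoters (GRCm38.p6, 250 bases before to 50 after a start, 1 promoter per gene). Of the tested genes 9434 had one, with a median of 21 CG and 84.1% at 10 or more. Promoters of called lower genes (113 of 161) had a median of 19, with 78.8% at 10 or more, whereas those of called higher genes (52 of 80) had a median of 9.5, with 50% at 10 or more. Among genes called also against each control clone, the 18 higher ones with a promoter had a median of 16.5 and 61.1% at 10 or more, nearer to that of all tested genes, and the 46 lower ones 22 and 80.4%. This is a description, and levels of expression, which differ between these groups, were not matched. The promoters of a pair of higher genes are printed with each CG in capitals, *Phactr2*, nearly silent in controls (17 CG, chr10:13324240-13324539, minus strand), and *Spata13*, expressed in all clones (22 CG, chr14:60634455-60634754, plus strand). Both starts lie inside the span of their gene, downstream of its outermost start, and the counts do not show which start was used.
Phactr2 promoter: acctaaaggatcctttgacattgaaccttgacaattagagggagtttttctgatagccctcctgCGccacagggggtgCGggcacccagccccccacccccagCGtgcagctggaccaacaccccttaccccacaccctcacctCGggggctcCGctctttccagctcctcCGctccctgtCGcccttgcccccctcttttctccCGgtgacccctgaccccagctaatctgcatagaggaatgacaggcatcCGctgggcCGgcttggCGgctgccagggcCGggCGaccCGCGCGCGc
Spata13 promoter: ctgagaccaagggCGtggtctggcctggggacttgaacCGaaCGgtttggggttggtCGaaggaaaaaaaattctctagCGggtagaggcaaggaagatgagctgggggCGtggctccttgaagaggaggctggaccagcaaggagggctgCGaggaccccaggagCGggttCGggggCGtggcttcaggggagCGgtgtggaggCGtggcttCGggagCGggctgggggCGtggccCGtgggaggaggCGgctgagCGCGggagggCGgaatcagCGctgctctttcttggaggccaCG
The files hold no methylation or binding at either start, and a count of CG is no measure of either.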

How the data were processed

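RNA of IMCD3 clones was sequenced from SMARTer mRNA libraries. The deposited values are counts per gene symbol (24421 symbols per file), not normalized, which the authors made with featureCounts on GRCm38/mm10; the submitters' processing notes also name R 3.4.4 and DESeq2 1.18.1. Whether counting used strand is not given in the sources used here. Symbols were matched to RefSeq genes for coordinates (99.5%). Promoters of chromosome 18 were left out.

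Groups came from the labels. Genes were filtered with filterByExpr, scaled by TMM and tested 2-sided with edgeR 4.0.16 (glmQLFit, glmQLFTest) in R 4.3.3, libraries as samples. Calls needed a Benjamini-Hochberg adjusted p below 0.05 together with at least a 2-fold difference. The SE is the fold change divided by the root of F. A fit with 5 clone groups gave the comparisons with each control clone. CPM used TMM over all ciliated libraries. Libraries of a clone are technical replicates: 0 of 30 pairs were identical and their chi-square divided by its degrees of freedom ran from 2.36 to 104, so each was used.

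Named genes were the 15 largest and 15 smallest fold changes among genes called in both fits, with no overlap of libraries, at least 1 CPM in the higher group and not discussed by the study; up to 6 called members of each list; the dynein-2 genes; and the 10 called genes with the highest mean CPM. Some genes and 1 list that these rules take in are not reported here. The members and lists were chosen with earlier results of these data known. Counts for the ciliated comparison (12292 genes) were simulated with the same mean in all control clones, and calls there needed the adjusted p alone. Of these, 95% of genes changed 2-fold and 100% of those changed 4-fold were recovered (86% and 99% against each control clone), with 7 false calls. The real control clones differed from each other, so these figures do not carry over to the calls reported here. DESeq2 1.42.0, limma 3.58.1 (voomLmFit), other scalings and filters, left-out clones and replicates, and a replicate block were alternatives.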

Additional observations from a re-analysis of the deposited data

Results flagged for a closer look

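In 25 of 374 groups of 4 libraries of the named genes (groups whose highest library was under 1 CPM were not looked at), 1 library lay far from the other 3 of its clone by Dixon's 95% criterion; chance alone gives about 1 in 20. In A4 replicate 1, *Asns* (152 CPM) and *Dcdc2a* (33.6) were low and *Hapln4* (18.1) and *Rasgef1b* (23.3) high. In G7 replicate 4, *Casp12* (1.38) and *Dync2h1* (22.1) were low and *Dynll2* (334) and *Wdr60* (26.2) high. In *Wdr60* replicate 2, *Flnc* (85.6), *Ldlrad4* (62.3) and *Parvb* (5.08) were low, and in *Wdr60* replicate 4 *Nrep* (441) was high. In D8, replicate 4 was high for *Bmp3* (12.2) and *Dnaaf3* (2.70), replicate 1 for *Peg3* (286) and replicate 3 for *Ust* (4.13), and replicate 2 was low for *Cbr3* (3.27) and *Dync2li1* (29.8). In H12, replicate 1 was high for *2610305D13Rik* (24.4) and *G6pc2* (69.2) and low for *Mapt* (1.36), replicate 2 was low for *Dync2h1* (24.9) and replicate 3 for *Bmp3* (10.1). In A4 replicate 3, *Foxd1* (13.7) and *Ust* (1.25) were low. Leaving out A4 replicate 1 and G7 replicate 4, chosen after seeing the data, gave 85 higher and 162 lower genes, among them 73 of the 80 and 150 of the 161.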

How the results depend on the processing

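Under DESeq2 127 genes were higher and 306 lower (nonciliated 505 lower), and 78 of the 80 and all 161 were kept. At the adjusted p alone the counts were 363 and 427 (318 and 292 against each control, nonciliated 740 and 743), and at an adjusted p under 0.01 37 and 68 (nonciliated 69 and 135). Summing the libraries of a clone gave 0 and 0 in edgeR in both states (192 ciliated and 393 nonciliated genes at an unadjusted p under 0.05), and voomLmFit blocked on clone 13 and 0 (nonciliated 14 and 5); neither can give a comparison with each control clone. Without D8, 76 genes were higher against each remaining control; without H12 the counts were 207 and 254, with 117 higher against each; without G7 158 and 246, with 59 and 126 against each. Nonciliated counts were 308 and 473 without AB, and 188 higher when every gene with a count was tested. Leaving out each replicate number gave 31 to 38 higher and 51 to 70 lower (nonciliated 52 to 172 and 109 to 289). Without A4 replicate 1 and G7 replicate 4, chosen after seeing the data, there were 85 and 162. With a replicate block there were 54 higher and 112 lower (37 and 81 against each control, nonciliated 97 and 217). Under that block 30 named genes lost their call. *Sytl2*, *Pamr1*, *Gpa33*, *Ppp1r14c* and *Ugt1a1* were among them, as were *Nrep*, *Mapt*, *Mak*, *Peg3* and *Stk39*. Replicate numbers did not pair the libraries: correlations of 40 same-number pairs ran from -0.226 to 0.587, and 5 of 20 libraries correlated best with their own number. Fold changes near 0 turned sign for *Dynll2* (-0.0262 to 0.28 over left-out replicates), *Dynlrb1* (-0.0357 to 0.17) and *Tctex1d2* (-0.12 to 0.0533, and 0.0427 without H12). The cause of these shifts was not tested. Of 92 called named genes 33, among them *Tsnax*, *Mrc2* and *Spata13*, kept their call in all 17 library-level settings, 9 under voomLmFit and 0 when summed. Another 2 lost no call but were not tested in every setting. In 1 of the 17 settings, the adjusted p alone, no call could be lost because it loosens the rule of the same fit. Of 48 list counts (higher and lower), 21 moved by over 1.5 times under DESeq2, 20 to 22 without a replicate number, 15 without H12, 12 with the replicate block and 27 to 29 with the clone as unit. Low counts limit genes under 1 CPM.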

Other observations

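In 2 genes outside the naming rule, chosen after their values were seen, all 4 *Wdr60* libraries lay above the controls in ciliated cells and below them in nonciliated cells. They were the only 2 of 12456 tested genes set apart in opposite directions. The control clones carry different labels in the 2 states. *Adgrg1*, an adhesion G-protein-coupled receptor, averaged 1278 ± 83.5 CPM (SD, n = 4 libraries) in the ciliated clone, with a ciliated log2 fold change of 0.68 (SE 0.21, edgeR adjusted p = 0.0567) and a nonciliated value of -1.03 (SE 0.11, edgeR adjusted p = 3.54e-06). For the noncoding RNA *2610035D17Rik* the values were 0.63 (SE 0.22, edgeR adjusted p = 0.0904) and -0.99 (SE 0.16, edgeR adjusted p = 0.000381). Neither gene was called in ciliated cells. The difference between the states was not tested.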
